A study of Homo sapiens with 4 samples.

Results

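Transcripts of the EGF family ligands and the ERBB receptors were followed in 2 human cancer cell lines after estrogen was added. The 8 genes were found by symbol, each once, among the 33538 genes of both feature lists, and comprise 4 ligands (TGFA, AREG, EREG and HBEGF) and 4 receptors (EGFR, ERBB2, ERBB3 and ERBB4). Ishikawa is an endometrial adenocarcinoma line, and T-47D is a ductal carcinoma line of the mammary gland. After a period in hormone-depleted medium with charcoal-stripped serum, cultures of each line received vehicle (DMSO, the 0 h culture) or 10 nM E2 (estradiol) for 2, 4 or 8 h. The cells of the 4 cultures of a line carried different MULTI-seq tags, DNA barcodes anchored in the membrane, and were sequenced together as 1 droplet library, so line and library cannot be told apart. Each line and time was 1 culture. No value therefore has a replicate, no test was possible, and the 95% intervals cover counting error only.

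ERBB receptors are a family of receptor tyrosine kinases that signal as pairs. TGFA, AREG, EREG and HBEGF are made as membrane-bound precursors, released by metalloproteases such as ADAM17, and bind EGFR, while HBEGF and EREG also bind ERBB4. ERBB2 has no known ligand of its own and serves as the preferred partner of the other receptors, and ERBB3 binds neuregulins but has little kinase activity. In estrogen-responsive epithelia, AREG and TGFA have long been studied as estrogen-induced growth factors, and ERBB2 as a gene whose transcript estrogen lowers.

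The members lie on 6 chromosomes in GRCh38.p14. AREG (chr4:74445136-74455005) and EREG (chr4:74365145-74388749) are neighbours on chromosome 4, and TGFA (chr2:70447284-70553826) and ERBB4 (chr2:211375717-212538802) share chromosome 2. HBEGF is at chr5:140332843-140346603, EGFR at chr7:55019017-55211628, ERBB3 at chr12:56080108-56103505 and ERBB2 at chr17:39688094-39728658. The RefSeq promoter table matched 7 of the 8 members. The 250 bases before the annotated start are shown for the 2 ligands that rose after E2, with motif matches in capitals:
AREG, chr4:74444886-74445135, plus strand: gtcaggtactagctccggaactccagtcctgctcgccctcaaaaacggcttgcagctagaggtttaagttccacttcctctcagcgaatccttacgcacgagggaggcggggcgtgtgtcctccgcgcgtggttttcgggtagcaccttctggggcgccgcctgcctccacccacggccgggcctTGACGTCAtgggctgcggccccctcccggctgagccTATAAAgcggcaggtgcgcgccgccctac
TGFA, chr2:70553827-70554076, minus strand: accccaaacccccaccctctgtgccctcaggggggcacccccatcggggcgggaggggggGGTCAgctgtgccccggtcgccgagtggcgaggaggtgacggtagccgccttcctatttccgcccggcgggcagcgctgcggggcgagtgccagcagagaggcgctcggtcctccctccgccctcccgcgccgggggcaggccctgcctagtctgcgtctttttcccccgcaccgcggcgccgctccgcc
Counted from the annotated start as 0, AREG held a cAMP response element (TGACGTCA) beginning at -65 and a TATA box (TATAAA, searched on the sense strand) beginning at -29. TGFA held 1 estrogen response element half-site (GGTCA) beginning at -190, and no TATA box. Another TGFA window, from a different annotated start (chr2:70553397-70553696, minus strand) and not shown, held no half-site and no TATA box. The full estrogen response element (GGTCA, any 3 bases, TGACC), which holds a half-site on each strand, was absent from the windows of all 7 members. Over 35116 RefSeq windows of the same length, which run 50 bases past the start, the full element occurred in 0.0570%, the half-site in 37.4%, the TATA box in 7.33% and the cAMP response element in 1.85% (both strands except for the TATA box). These matches describe the letters only.

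The authors' calls and the study's limits left 776 to 1480 cells per Ishikawa pool and 553 to 1525 per T-47D pool, where a pool is the kept cells of 1 culture. Pools held 15305038 to 30994433 unique molecular identifiers (UMIs, each marking 1 captured transcript) in Ishikawa and 12927799 to 33175309 in T-47D. The limits kept 38.2% of the called Ishikawa cells at 0 h but 52.4% to 55.8% at later times, and every called T-47D cell. A GFP reporter took 3.17% to 4.67% of Ishikawa UMIs. Both libraries contained 80 cell barcodes in common, 5 of them among kept cells. Ishikawa cells carried PAX8, SOX17, EMX2 and HOXA10, with 52.2 to 133 CPM, and no more than 1 UMI per pool of GATA3, TFF3 or PIP, while T-47D cells had 444 to 886 CPM of GATA3, TFF3 and PIP and no UMI of PAX8, SOX17, EMX2 or HOXA10. FOXA1, also a breast luminal marker, was at 4.44 to 5.75 CPM in Ishikawa and 84.4 to 119.1 in T-47D. HOXA11, also an endometrial marker, was at 4.25 to 6.90 CPM in Ishikawa and had 3 to 18 UMIs per pool in T-47D. ESR1, the estrogen receptor, was present in both lines. The 10 markers of immune, endothelial and fibroblast cells summed to 23.0 to 32.0 CPM in Ishikawa, mostly COL1A1. They summed to 13.3 to 17.7 in T-47D, mostly LUM and COL1A1, and CDH5 was at 0 in all pools.

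Before E2, AREG had the highest level of the ligands in both lines, within counting error of TGFA in Ishikawa, while the leading receptor was EGFR in Ishikawa and ERBB3 in T-47D. Levels are the UMIs of a gene scaled to the total of its pool (counts per 1000000 UMIs, CPM), and since each transcript gives 1 UMI near its end, they were not scaled to gene length. In Ishikawa the order was EGFR (26.8 CPM), ERBB3 (19.3), ERBB2 (17.8), AREG (13.8), TGFA (11.2) and HBEGF (6.60), with 1 UMI each of EREG and ERBB4. Neighbours in this order whose intervals overlapped were ERBB3 with ERBB2 and AREG with TGFA. In T-47D the order was ERBB3 (149.6 CPM), ERBB2 (85.0), AREG (23.4), ERBB4 (14.5), EGFR (10.6), HBEGF (1.87), TGFA (1.84) and EREG (1 UMI), and only HBEGF and TGFA were alike within counting error. ERBB3 was 7.76-fold higher in T-47D (95% interval 6.90 to 8.76), ERBB2 4.77-fold higher (4.21 to 5.42) and AREG 1.70-fold higher (1.46 to 1.99). ERBB4 had 481 UMIs in T-47D against 1 in Ishikawa, a ratio of 222 with an interval of 39.6 to 8783. In the opposite direction, Ishikawa exceeded T-47D by 6.11-fold for TGFA (4.54 to 8.33), 3.53-fold for HBEGF (2.55 to 4.93) and 2.52-fold for EGFR (2.18 to 2.92). The 4 receptors together summed to 64.0 CPM in Ishikawa and 259.7 in T-47D.

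A change against 0 h was counted where a gene averaged at least 10 CPM over the 4 pools of its line and differed by at least 1.5-fold in (CPM + 1), taken against 0 h and given as log2, a scale on which changes of low genes come out too small. In Ishikawa 5 of the 8 members reached this minimum (TGFA, AREG, EGFR, ERBB2 and ERBB3), and in T-47D 4 did (AREG, ERBB2, ERBB3 and ERBB4). TGFA was the 1 member that passed in Ishikawa, upwards at 2, 4 and 8 h, and AREG was the 1 member that passed upwards in T-47D, also at each time. ERBB2 passed downwards in T-47D at 8 h. The share of all 7885 Ishikawa genes past the minimum that passed upwards was 0.786%, 0.634% and 0.812% at 2, 4 and 8 h, and downwards 0.659%, 0.621% and 0.469%. At 4 h this made 50.5% of Ishikawa calls higher, against 62.5% under TMM scaling and 65.6% under scaling by median of ratios. The 3 comparisons of a line share its 0 h pool. Of 7440 T-47D genes, 1.22%, 1.33% and 2.34% passed upwards at the 3 times and 0.417%, 0.363% and 0.726% downwards.

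**Figure D1:**
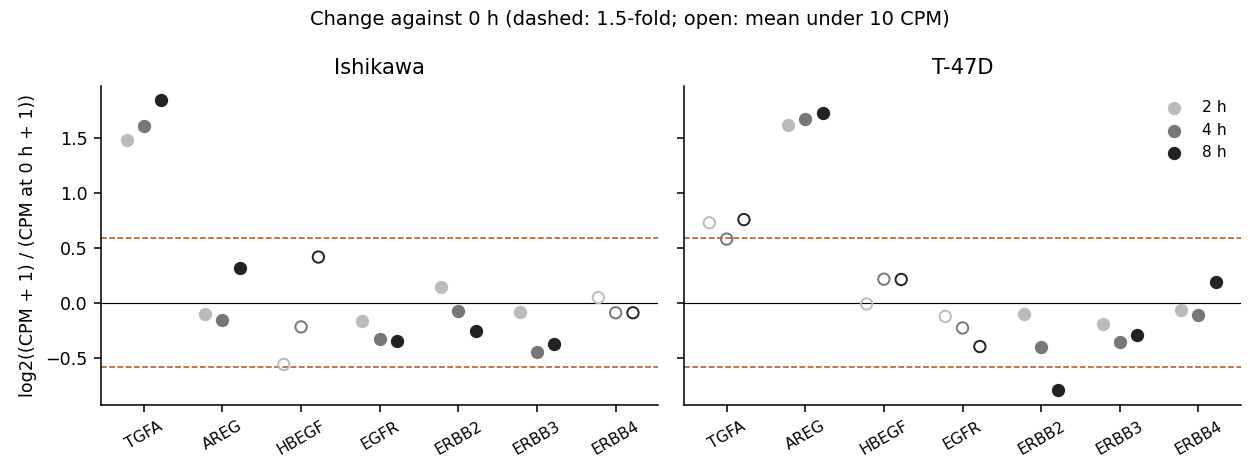
Log2 change against 0 h (vertical axis, log2((CPM + 1)/(CPM at 0 h + 1))) of 7 members at 2, 4 and 8 h in each line, with EREG left out for its 3 or fewer UMIs per pool. Filled points are members averaging at least 10 CPM, open points are under it, and dashed lines mark 1.5-fold, which filled points cross for TGFA in Ishikawa, and for AREG and, at 8 h, ERBB2 in T-47D.

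Among the ligands, TGFA rose in Ishikawa. TGFA encodes transforming growth factor alpha, a high-affinity ligand of EGFR. Its UMIs over the 4 times numbered 172, 990, 700 and 1325, or 11.2 CPM (9.62 to 13.0), 33.1 (31.1 to 35.3), 36.2 (33.5 to 38.9) and 42.7 (40.5 to 45.1). All later pools stood well above 0 h, and the 8 h pool stood above the other 2. The ratios to 0 h were 2.95 (2.51 to 3.49), 3.22 (2.72 to 3.82) and 3.80 (3.24 to 4.49), and the log2 changes were 1.48, 1.60 and 1.84. At 2 h TGFA had gained 69.5% of its 8 h increase in CPM, and the step from 4 to 8 h was a further 1.18-fold (1.08 to 1.30). The log2 changes were 1.35, 1.46 and 1.66 with every called cell, and 1.47, 1.60 and 1.82 in cells with under 1% GFP UMIs. Ordered by log2 change from the highest, TGFA was number 8 at 2 h, 6 at 4 h and 4 at 8 h of 7885 genes. In T-47D, TGFA had only 61, 98, 96 and 49 UMIs, or 1.84, 3.69, 3.24 and 3.79 CPM. Those ratios to 0 h were 2.01 (1.44 to 2.81), 1.76 (1.26 to 2.47) and 2.06 (1.39 to 3.05), but the gene stayed under the 10 CPM minimum. Its T-47D level at 8 h was therefore below the Ishikawa level before E2.

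AREG rose in T-47D and not in Ishikawa by the same rule. AREG encodes amphiregulin, a lower-affinity EGFR ligand that is needed for duct growth in the mammary gland. T-47D pools held 777, 1952, 2273 and 1032 AREG UMIs at 0, 2, 4 and 8 h, or 23.4 CPM (21.8 to 25.1), 73.6 (70.4 to 76.9), 76.7 (73.5 to 79.9) and 79.8 (75.0 to 84.9). The 3 later pools overlapped each other within counting error and were all above 0 h. Ratios to 0 h were 3.14 (2.89 to 3.42), 3.27 (3.02 to 3.56) and 3.41 (3.102 to 3.746), on the log2 scale 1.61, 1.67 and 1.73. By 2 h the gene had made 88.9% of its 8 h gain, and it was number 10, 11 and 14 from the highest of 7440 genes at 2, 4 and 8 h. In Ishikawa, AREG had 211, 382, 238 and 538 UMIs, or 13.8, 12.8, 12.3 and 17.4 CPM, with log2 changes of -0.10, -0.15 and 0.31. The sign at 2 and 4 h was not stable, since cells without a TOP2A or MKI67 UMI gave 0.28 and 0.38. From 4 to 8 h Ishikawa AREG stepped up 1.41-fold (1.21 to 1.65). The difference between the lines in the response of either ligand was not tested.

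**Figure D2:**
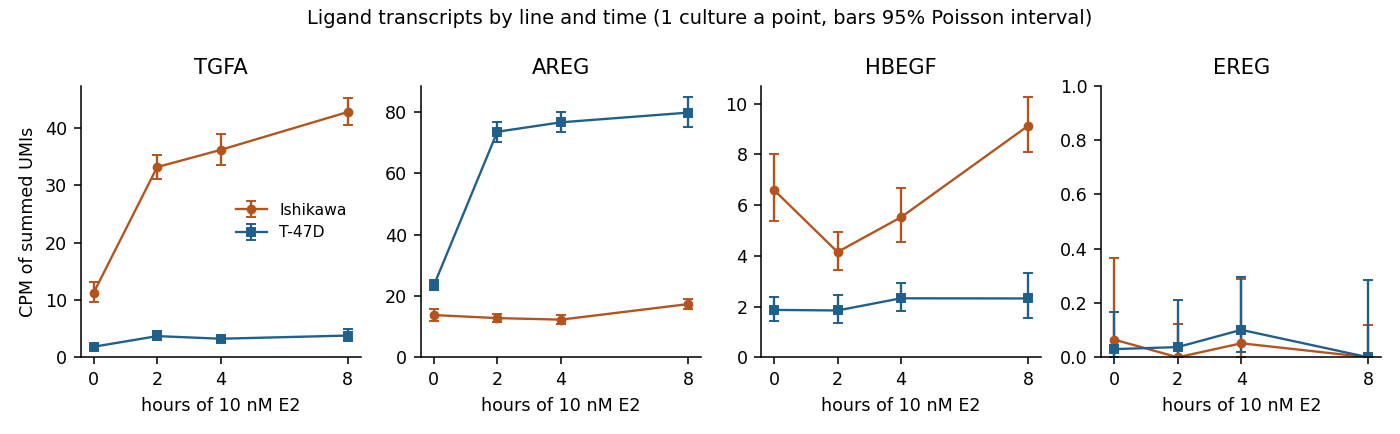
CPM of summed UMIs (vertical axis, a scale of its own in each panel) of the 4 ligands against hours of 10 nM E2, with Ishikawa as circles and T-47D as squares; bars are 95% Poisson intervals and each point is 1 culture. TGFA climbs from 11.2 to 42.7 CPM in Ishikawa, AREG from 23.4 to 79.8 CPM in T-47D, and EREG stays near 0.

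HBEGF and EREG were scarce. HBEGF, the heparin-binding member, had 101, 124, 107 and 283 UMIs in Ishikawa, or 6.60, 4.15, 5.53 and 9.13 CPM. The 2 h level was 0.629 times that at 0 h (0.480 to 0.826) and the 8 h level 1.38 times (1.10 to 1.75), both at a mean of 6.35 CPM and so under the minimum. Both intervals are too narrow, since HBEGF UMIs varied more across cells than independent counts would. In T-47D its 62, 49, 69 and 30 UMIs amounted to 1.87, 1.85, 2.33 and 2.32 CPM. A single T-47D cell held 23 of the 69 UMIs at 4 h, and without it that pool had 1.55 CPM. EREG, encoding epiregulin, had at most 3 UMIs in any pool. In Ishikawa it had none at 2 or 8 h, where 3 counts would be 0.1004 and 0.0968 CPM, and in T-47D none at 8 h, where 3 counts would be 0.232 CPM. EREG was therefore not detectable above this level in either line, next to a gene, AREG, that had 1032 UMIs in that same T-47D pool.

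Of the 7 other ligands of the family, BTC (betacellulin) and NRG1 and NRG4 (neuregulins, ligands of ERBB3 or ERBB4) were the ones with more than 1 CPM in Ishikawa. BTC stood at 9.08, 9.44, 9.50 and 7.74 CPM and NRG1, the 1 gene of this group past the minimum, at 11.2, 9.64, 10.0 and 12.1, without a change past the rule. In T-47D none reached the minimum, and the highest 0 h levels were NRG4 at 1.75 CPM and EPGN at 1.72.

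Within the 7 EGFR ligands (the 4 members plus EGF, BTC and EPGN), the make-up of UMIs differed between lines and moved with E2. These shares come from within a pool, so the scaling of pools does not enter. In Ishikawa all EGFR ligands together made 41.0, 59.7, 63.6 and 77.1 CPM, and TGFA's share of their UMIs was 27.4% (23.9% to 31.1%) at 0 h against 55.5% (53.2% to 57.8%), 56.8% and 55.4% later. The AREG share went from 33.6% to 21.4%, 19.3% and 22.5%. In T-47D the sum was 30.1, 81.5, 85.2 and 88.2 CPM, and AREG was 77.8% (75.1% to 80.3%) at 0 h and 90.3%, 90.0% and 90.5% later. The TGFA share in T-47D was 6.11% at 0 h and 3.80% to 4.53% later. Thus AREG led before and after E2 in T-47D. In Ishikawa the interval of the AREG share at 0 h (29.9% to 37.4%) overlapped that of TGFA, and TGFA led from 2 h on.

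**Figure D3:**
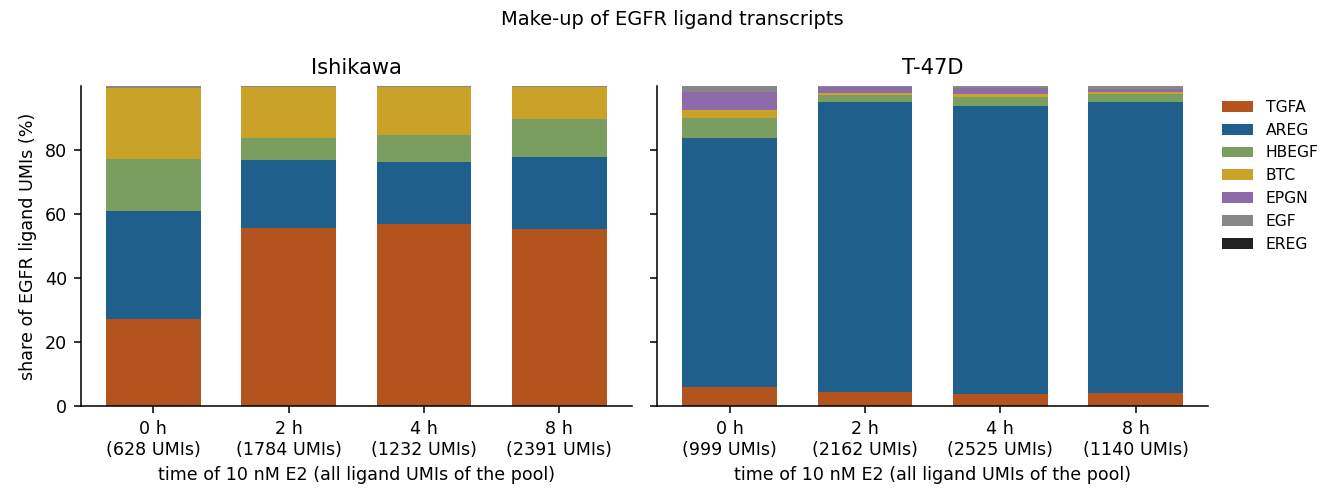
Share of all EGFR ligand UMIs (vertical axis, percent) taken by each of 7 ligands in the 4 pools of each line, with the number of ligand UMIs under each bar. TGFA makes up 27.4% of the Ishikawa bar at 0 h and 55.4% at 8 h, and AREG 77.8% and 90.5% of the T-47D bars.

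Among the receptors, ERBB2 fell in T-47D. ERBB2 encodes HER2, the partner receptor without a ligand of its own. It had 2821, 2098, 1903 and 628 UMIs in T-47D, or 85.0 CPM (81.9 to 88.2), 79.1 (75.7 to 82.6), 64.2 (61.3 to 67.1) and 48.6 (44.9 to 52.5). Each pool from 2 h on was lower than the one before it, with steps of 0.812-fold (0.762 to 0.864) from 2 to 4 h and 0.757-fold (0.690 to 0.829) from 4 to 8 h. Only 16.3% of the 8 h loss was present at 2 h and 57.2% at 4 h, whereas AREG had made most of its gain by then. The log2 changes were -0.10, -0.40 and -0.80, and at 8 h the ratio was 0.571 (0.523 to 0.623), which placed ERBB2 as number 23 from the lowest of 7440 genes. In Ishikawa, ERBB2 had 273, 590, 327 and 458 UMIs, or 17.8, 19.8, 16.9 and 14.8 CPM. Its log2 changes there were 0.14, -0.07 and -0.26 and did not pass the rule, and the sign at 2 h changed to -0.23 when every called cell was summed.

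ERBB3, the highest receptor of T-47D and the main partner of ERBB2 for neuregulins, had 4963, 3458, 3464 and 1580 UMIs there. These were 149.6 CPM (145.5 to 153.8), 130.4 (126.1 to 134.8), 116.8 (113.0 to 120.8) and 122.2 (116.3 to 128.4). The later pools lay below 0 h beyond counting error, with log2 changes of -0.20, -0.35 and -0.29 that stayed under the fold rule. In Ishikawa, ERBB3 had 19.3, 18.1, 13.9 and 14.6 CPM from 295, 541, 269 and 454 UMIs. Its log2 changes of -0.09, -0.45 and -0.37 did not pass either. With every called cell they were -0.39, -0.72 and -0.66, past 1.5-fold at 4 and 8 h. At 4 h the change was also past 1.5-fold in cells without a TOP2A or MKI67 UMI (-0.64) and in cells with under 1% GFP UMIs (-0.60). At 8 h it was not, at -0.25 and -0.36.

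EGFR, the receptor for all 4 ligands, had 410, 709, 410 and 646 UMIs in Ishikawa, or 26.8 CPM (24.3 to 29.5), 23.7 (22.0 to 25.6), 21.2 (19.2 to 23.3) and 20.8 (19.3 to 22.5). The log2 changes were -0.17, -0.33 and -0.35, and the 8 h ratio was 0.778 (0.686 to 0.883). In T-47D its 352, 256, 264 and 101 UMIs made 10.6, 9.65, 8.90 and 7.81 CPM, a mean of 9.24 CPM that was just under the minimum, and the 8 h ratio was 0.736 (0.584 to 0.921). In both lines the EGFR level at each later time was below that at 0 h by less than the fold rule, and at 2 h the interval of the ratio included 1 in both. ERBB4, a receptor for neuregulins, had 481, 365, 397 and 215 UMIs in T-47D, or 14.5, 13.8, 13.4 and 16.6 CPM, and none of its 3 ratios to 0 h cleared 1 (0.949, 0.924 and 1.15 with intervals that included 1). It stepped up 1.24-fold (1.05 to 1.47) from 4 to 8 h. In Ishikawa ERBB4 had 1, 3, 0 and 0 UMIs.

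In T-47D the make-up of the receptor transcripts differed after E2, mainly in ERBB2. Its share of the receptors' UMIs was 32.7% (31.7% to 33.7%) at 0 h and 24.9% (23.2% to 26.6%) at 8 h, while ERBB3's went from 57.6% to 62.6% and ERBB4's from 5.58% to 8.52%. The 4 receptors summed to 259.7, 232.9, 203.3 and 195.2 CPM over time. In Ishikawa, EGFR's share was 41.9% at 0 h and 41.5% at 8 h, within counting error, and the sum was 64.0, 61.7, 52.0 and 50.3 CPM.

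**Figure D4:**
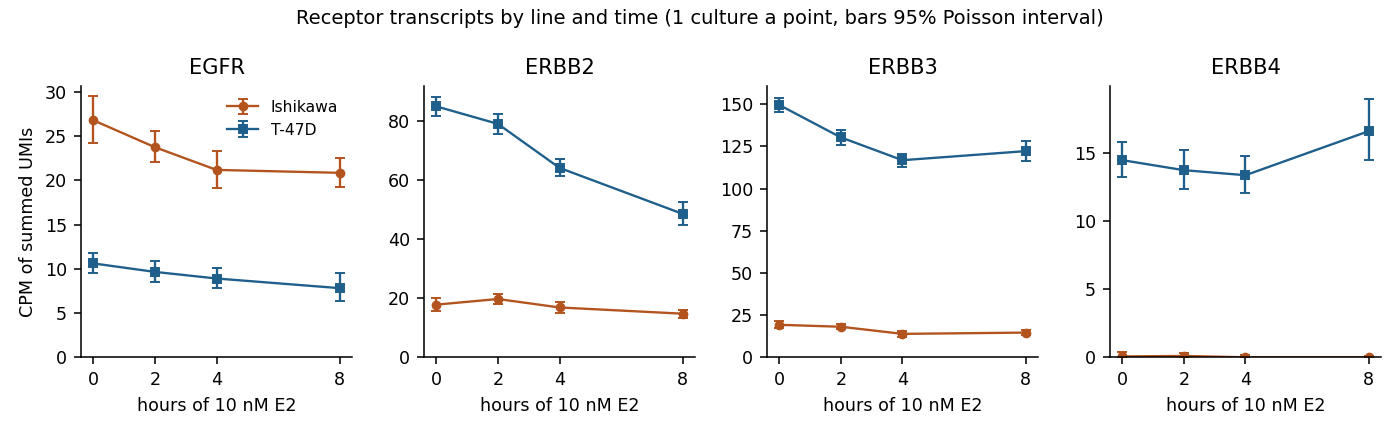
CPM of summed UMIs (vertical axis, a scale of its own in each panel) of the 4 receptors against hours of 10 nM E2, with Ishikawa as circles and T-47D as squares; bars are 95% Poisson intervals and each point is 1 culture. ERBB2 drops from 85.0 to 48.6 CPM in T-47D, and Ishikawa ERBB4 stays at 0 to 3 UMIs per pool.

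To see how many cells carried the ligands, each cell was thinned to 10000 UMIs, which left out 13 to 37 shallower cells per Ishikawa pool and none in T-47D. TGFA was found in 8.30% of Ishikawa cells at 0 h (exact binomial interval 6.44% to 10.5%), 26.5% at 2 h, 27.9% at 4 h and 33.1% (30.7% to 35.6%) at 8 h. Without thinning the shares were 16.2%, 41.8%, 47.8% and 49.6%. Cells with 2 or more TGFA UMIs went from 1.58% to 5.82%, 6.71% and 9.78%. AREG was found in 18.7% of T-47D cells at 0 h (16.8% to 20.7%), 41.3% at 2 h, 42.5% at 4 h and 42.3% (38.2% to 46.6%) at 8 h, or unthinned in 34.1%, 57.1%, 59.4% and 60.4%. Cells with 3 or more AREG UMIs went from 0.656% to 7.62%, 8.80% and 8.50%. Both the share of cells with a UMI and the share with several UMIs were thus higher after E2. ERBB2 in T-47D was found in 54.9% of cells at 0 h and 36.3% at 8 h. Each library held 1 line, so no cell type that should lack a member was present in it to measure free RNA. The rarest members in Ishikawa, ERBB4 and EREG, had a UMI in at most 1 thinned cell per pool, from cells of 19122 to 21436 UMIs in the median. Their rarity does not measure free RNA of TGFA or AREG, since genes this scarce have little RNA to release.

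**Figure D5:**
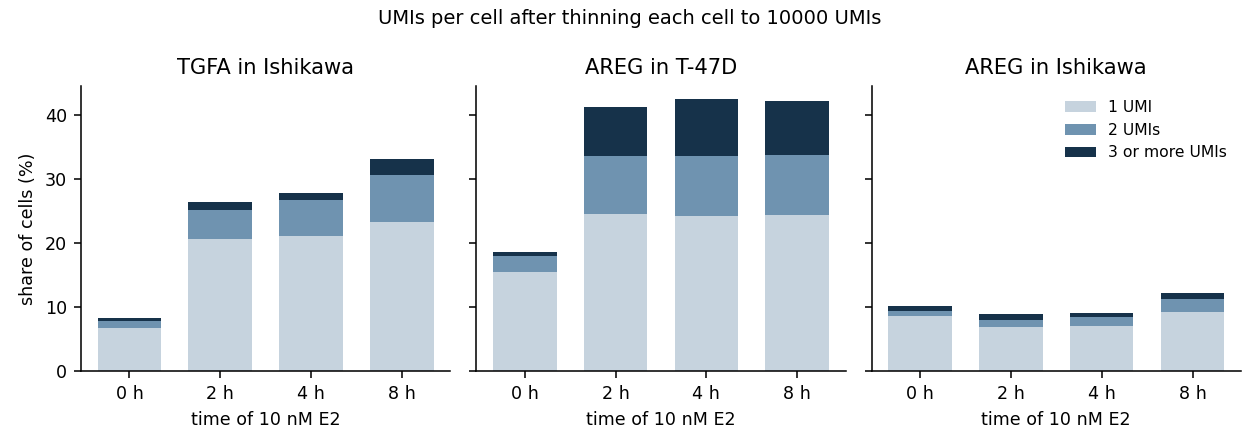
Share of cells (vertical axis, percent) with 1, 2 or at least 3 UMIs of a ligand after thinning each cell to 10000 UMIs, in the 4 pools of a line. The stacks for TGFA in Ishikawa and AREG in T-47D are taller at 2, 4 and 8 h than at 0 h, up to 33.1% and 42.5%, and AREG in Ishikawa stays between 8.94% and 12.2%.

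AREG was spread unevenly over cells in both lines. The coefficient of variation (CV) of AREG UMIs per 10000 across Ishikawa cells was 3.84, 4.05, 3.37 and 3.52 at 0, 2, 4 and 8 h, against medians of 1.46, 1.44, 1.39 and 1.40 over 7885 genes. The CV falls as the mean rises, so the residual of log2(CV + 1) from its fit on the mean was ranked among genes of similar mean (10 bins). By this rank AREG was at percentile 100, 99.9, 100 and 99.7 in Ishikawa. In T-47D it was at 97.3, 98.7, 97.6 and 97.7, also in the top 20%, the share that the study's method names High noise. The study classed noise at 0 h only, with a fit on the mean itself and over more genes, so its classes can differ. Ishikawa cells with AREG were few, 8.94% to 12.2% after thinning, but single cells reached 8, 11, 6 and 10 UMIs. In T-47D at 2 h, 1 cell alone held 93 of the 1952 AREG UMIs, 4.76%. Without the cell richest in AREG in each pool, the log2 change at 2 h was 1.56, an alternative chosen after seeing the data. TGFA in Ishikawa was also in the top 20%, at percentile 97.6 at 0 h and 90.6 to 92.0 later, although no cell had more than 6 thinned UMIs. ERBB4 in T-47D was at 86.7 to 94.4, and ERBB2 there moved from 63.7 at 0 h and 64.4 at 2 h to 81.6 and 90.2 at 4 and 8 h. In cells without a TOP2A or MKI67 UMI, 3 of these percentiles at 4 h left the top 20%, with TGFA in Ishikawa at 78.4, ERBB4 in T-47D at 68.8 and ERBB2 in T-47D at 63.4. EGFR, ERBB2 and ERBB3 in Ishikawa and ERBB3 in T-47D ranged from percentile 26.8 to 90.4.

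Which members met in the same cell was counted in the thinned cells and set beside the number that independent detection would give. In Ishikawa, AREG and HBEGF were found together in 13, 12, 5 and 21 cells at 0, 2, 4 and 8 h, where 4.93, 3.67, 3.46 and 11.2 would be met by independence. The Poisson intervals of these counts, 6.92 to 22.2, 6.20 to 21.0, 1.62 to 11.7 and 13.0 to 32.1, lay above those numbers at 0, 2 and 8 h. The same pair in T-47D gave 2, 14, 12 and 5 cells against 5.23, 9.92, 10.2 and 6.77. TGFA was not found with either ligand above the independent number beyond its interval in Ishikawa. The count was below it for TGFA and AREG at 2 h, with 22 cells (13.8 to 33.3) against 34.2, and for TGFA and HBEGF at 8 h, with 18 cells (10.7 to 28.4) against 30.5. TGFA and AREG met in 53 cells at 8 h against 58.3. HBEGF and EGFR at 8 h were above it, with 26 cells (17.0 to 38.1) against 16.6. TGFA and EGFR were found together in 74 Ishikawa cells at 2 h and 83 at 8 h, where independence gave 72.2 and 86.2. In T-47D, ERBB2 and ERBB3 met in 639 cells at 0 h against 628, and AREG and ERBB3 in 158 at 8 h against 160.4. Further pairs of members were counted at each time in both lines, and none of their independent numbers lay outside the interval. Among this many counts, some would lie outside by counting error alone. Counts this sparse describe the pools and were given no test.

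Dividing cells, taken as those with any UMI of TOP2A or MKI67, were 66.1% to 72.3% of Ishikawa pools and 31.7% to 41.6% of T-47D pools, highest in T-47D at 8 h. The ligand changes were present in both fractions. In Ishikawa, TGFA went from 10.4 to 41.1 CPM between 0 and 8 h in dividing cells and from 13.3 to 46.7 in the others. In T-47D, AREG at 0 h was 25.2 CPM in dividing cells (22.3 to 28.3) and 22.5 in the others (20.6 to 24.6), and at 8 h 95.2 (87.4 to 103.6) against 67.5 (61.6 to 73.8). The 8 h intervals of AREG were apart, and those at 0 h overlapped. So did those at 2 h (74.1 against 73.3 CPM) and 4 h (80.1 against 74.4). These Poisson intervals take each UMI as independent. The variance of thinned AREG UMIs across T-47D cells was 1.23, 3.91, 2.29 and 2.07 times their mean at the 4 times. The intervals are therefore too narrow for AREG, and the difference at 8 h was not tested. In Ishikawa this variance was 1.76 to 2.59 times the mean for AREG and 1.39 to 2.17 for HBEGF, so their intervals there are too narrow as well. ERBB2 in T-47D was lower in dividing cells at each time, 76.9 against 89.3 CPM at 0 h and 42.3 against 53.6 at 8 h. Its intervals overlapped at 4 h, with 61.1 CPM (56.7 to 65.7) against 66.2 (62.5 to 70.1). At 8 h they were barely apart (37.2 to 48.0 against 48.4 to 59.2).

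The pathway around the members was described by 6 lists of 66 genes, of which 42 reached the minimum in Ishikawa and 35 in T-47D. None of the 6 genes of ligand shedding, the 12 that restrain ERBB signalling or the 16 adaptors and RAS-ERK core genes passed the rule at any time in either line. Of these, 3, 8 and 15 reached the minimum in Ishikawa and 3, 7 and 15 in T-47D. Among all genes past the minimum, at most 2.34% passed upwards and at most 0.726% downwards at any time. CBLB, which restrains ERBB signalling, was at 11.2, 7.80, 6.97 and 7.94 CPM in Ishikawa. Its log2 change at 4 h was -0.62 (ratio 0.620, 0.492 to 0.782), not counted because its mean was 8.49 CPM. ADAM17, the main protease that releases these ligands, stood at 32.5, 30.7, 30.4 and 34.6 CPM in Ishikawa and 10.4, 9.76, 10.1 and 7.81 in T-47D. ERRFI1, a feedback inhibitor of EGFR, was at 14.2, 12.1, 17.0 and 18.2 CPM in Ishikawa. Of 9 PI3K-AKT genes, PIK3R3, a regulatory subunit, was lower in Ishikawa at 4 h by the rule, at 36.0, 29.2, 22.6 and 27.8 CPM, a log2 change of -0.65 that lay between -0.84 and -0.57 under other settings. The value of -0.57, with a pseudocount of 5 CPM, is under the rule and ends the call. Median log2 changes of the 42 genes were -0.08, -0.04 and 0.03 in Ishikawa, beside -0.01, -0.01 and 0.00 for all genes past the minimum. Those of the 35 T-47D genes were 0.03, -0.03 and -0.02, beside 0.01, -0.01 and 0.01.

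Among 16 transcripts known to follow ERK activity, 8 reached the minimum in Ishikawa and 3 in T-47D. In Ishikawa the immediate-early factor EGR1 was at 13.9, 11.4, 21.1 and 36.8 CPM and passed at 8 h (log2 change 1.35, ratio 2.66, 2.29 to 3.09). MYC, a growth regulator, was at 17.3, 30.1, 30.5 and 31.1 CPM and passed at all 3 times. In T-47D MYC was at 2.17, 8.18, 6.88 and 7.66 CPM, ratios of 3.77 (2.87 to 4.99), 3.17 (2.41 to 4.21) and 3.53 (2.58 to 4.85) that the rule did not count because its mean was under 10 CPM. IER3, an early response gene linked to cell survival, moved in opposite directions. It was at 24.0, 7.43, 7.39 and 8.61 CPM in Ishikawa and at 123.4, 299.4, 241.3 and 262.2 in T-47D, passing downwards and upwards at each time. The Ishikawa change was far smaller in cells without a TOP2A or MKI67 UMI, where the log2 changes were -0.66, -0.37 and 0.087. In T-47D, CCND1 (cyclin D1) passed at 2 h, at 102.3, 158.5, 125.6 and 143.4 CPM, but its log2 change of 0.63 was 0.55 in cells without those UMIs, under the rule. Of the MAPK feedback genes, DUSP6 in Ishikawa was at 15.6, 11.1, 14.9 and 23.7 CPM, and its log2 change at 8 h of 0.57 (ratio 1.52, 1.31 to 1.76) was just under the rule, which it passed with TMM or median-of-ratios scaling. SPRY2, SPRY4 and DUSP4 were each under 10 CPM in both lines, with SPRY4 in Ishikawa at 2.16 CPM at 0 h and 4.52 at 8 h (ratio 2.09, 1.43 to 3.16). SPRY2 in Ishikawa was at 4.64, 2.85, 4.91 and 5.97 CPM, and FOS at 3.99, 2.34, 3.46 and 9.07. DUSP5 in Ishikawa was at 11.3, 5.63, 7.80 and 11.7 CPM. Its log2 change of -0.893 at 2 h was not counted because its mean was under 10 CPM. The 8 genes of this list past the minimum in Ishikawa had median log2 changes of -0.233, 0.035 and 0.367. Those of all genes past it were -0.014, -0.012 and 0.001.

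Genes with the most similar pattern were taken as those with the smallest Euclidean distance between their 3 log2 changes and those of a member, over the 3 later times of 1 line. For TGFA in Ishikawa these included NRTN at a distance of 0.103, with 12.3, 36.5, 40.1 and 50.2 CPM, and RGS10 at 0.398. For AREG in T-47D they were THBS1 at 0.229, STC2 at 0.235 and AMZ1 at 0.264, and STC2 had 27.3, 78.5, 95.5 and 104.6 CPM. For ERBB2 in T-47D they included VTCN1 at 0.160 and TGFB3 at 0.176, the last with 43.6, 40.1, 32.3 and 28.0 CPM.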

How the data were processed

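Gene by cell matrices of counts (UMIs) were deposited by the authors, who made them with Cell Ranger 3.1.0 on hg38 according to the submitters' processing notes, together with a table that gives each barcode its time by its MULTI-seq tag. Barcodes called to 1 time were kept within the study's limits, in Ishikawa 8500 to 35000 UMIs, 2700 to 6000 genes and a mitochondrial share below 7%, and in T-47D 7500 to 40000, 1500 to 6000 and below 20%. Barcodes with several tags or none were left out, pairs of cells with the same tag could not be seen, and no further doublet caller was run. For each of 8 pools the kept cells' counts were added up and divided by their total. Intervals are exact Poisson for CPM, exact conditional for ratios (plain, without the pseudocount of 1 CPM) and exact Clopper-Pearson for shares, at 95%. Noise used a generalised additive model (mgcv 1.9.3, R 4.3.3) of log2(CV + 1) on the log10 mean over genes of at least 10 CPM. TMM factors came from edgeR 4.0.16, and the rest used Python 3.11.15 with scipy 1.17.1. The fold rule, the intervals and the noise score were tested on simulated data first. For the rule and the intervals these data were Poisson counts, as the intervals assume. That test therefore did not cover UMIs that gather in few cells or differences between cultures.

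The 8 members and the 6 lists were chosen with earlier results of these data known. Named genes were the members, list genes past the rule, 3 genes nearest to each member past it (2 of these are not reported here), and further list genes given as examples after their values were seen. Promoter sequences, gene positions and motif shares came from RefSeq tables of GRCh38.p14, and motifs were counted by letters. The MULTI-seq tag libraries held no expression values and were not used.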

Additional observations from a re-analysis of the deposited data

Results flagged for a closer look

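IER3, a gene of the ERK-driven list, stood out because every later pool of one line moved one way and every later pool of the other line moved the opposite way. Its log2 changes were -1.57, -1.57 and -1.38 in Ishikawa (2, 4 and 8 h). The matching T-47D values were 1.27, 0.96 and 1.08. With 1 culture per line and time, the difference was not tested.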

How the results depend on the processing

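Over all settings, the changes past the rule kept their direction, with TGFA in Ishikawa at 1.23 to 1.55, 1.34 to 1.68 and 1.56 to 1.92 on the log2 scale at 2, 4 and 8 h, AREG in T-47D at 1.47 to 1.66, 1.52 to 1.71 and 1.54 to 1.78, and ERBB2 in T-47D at 8 h at -0.81 to -0.73. The low ends came from a pseudocount of 5 CPM, with TGFA at 1.23, 1.34 and 1.56 and AREG at 1.47, 1.52 and 1.58, and AREG at 8 h was 1.54 in cells without a TOP2A or MKI67 UMI. The exception in direction was IER3 in Ishikawa at 8 h, which was 0.087 in such cells, and the cause was not tested. The Ishikawa count of 1 member past the rule became 0 with a minimum of 50 CPM and 3 with a smaller fold limit, and the T-47D count of 2 became 1 with a fold of 2, 3 with no minimum (adding TGFA) and 3 with the smaller fold limit (adding ERBB3). The Ishikawa count of 4 list genes became 9 with no minimum, 0 with 50 CPM, 12 with the smaller fold limit, 2 with a fold of 2 and 5 with TMM or median-of-ratios scaling (adding DUSP6), and the T-47D count of 2 became 3 with no minimum (adding MYC), 6 with the smaller limit and 1 with a fold of 2. Removing the cell richest in a member, chosen after seeing the data, left each such change within its counting interval. Summing every called cell was not run for T-47D, since its limits removed none. Member counts were not redone on other sets of cells, some of which put ERBB3 in Ishikawa past 1.5-fold at 4 h. No paired analysis was possible because each line and time was 1 culture. Depth leaves EREG in both lines and ERBB4 in Ishikawa at 3 or fewer UMIs per pool.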
